A study of Mus musculus with 12 samples.

Results

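The 37 genes described here are type I interferon-stimulated genes, a named list of mouse genes whose transcripts accumulate after signalling by interferon alpha or beta. They were found in the table of 57010 genes by matching each Ensembl identifier to its symbol, a step that made no use of their measured levels. The list itself was chosen with earlier results of these data known. All 37 were matched, and all 37 were among the 15943 genes that had enough reads to be tested. They were followed in 12 RNA-seq libraries of large peritoneal macrophages. These long-lived phagocytes reside in the fluid of the mouse peritoneal cavity and were sorted as F4/80high MHCIIlow cells.

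The libraries formed 4 groups of 3, all from female mice. The WT naive group came from wild-type mice without tumour cells, and the Tim4KO naive group from mice that lack the scavenger receptor Tim4. The WT ID8 and Tim4KO ID8 groups came from mice of the same 2 genotypes, 8 weeks old when injected into the peritoneal cavity with ID8ZGO, a line of the mouse ovarian tumour cell ID8 that carries the fluorescent protein ZsGreen and ovalbumin. Macrophages were taken 24 h later, and only ZsGreen-positive ones were kept. Naive macrophages were not selected in this way, so challenge, uptake of tumour material and the sort cannot be told apart in a comparison of ID8 with naive cells. The study asked which transcripts change after phagocytosis with and without Tim4. The age of the naive mice, the targeting of the Tim4 gene and its cell type are not given in the sources used here. Nor do the sources say whether the libraries of a group came from separate mice or pools, so p-values measure only the spread between these samples. In bulk RNA, fewer cells of a type and less RNA per cell cannot be told apart.

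Interferons alpha and beta bind a shared receptor made of Ifnar1 and Ifnar2, whose kinases Jak1 and Tyk2 phosphorylate Stat2. With Irf9 it enters the complex ISGF3, which binds a promoter element rich in GAAA repeats and turns on genes that sense viral RNA, block its replication and adjust the signal itself. Macrophages both make and answer type I interferon, and they can do so after taking up nucleic acid from dying cells.

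The element bound by ISGF3 can be searched for as GAAA, any 2 bases, then GAAA again, on both strands (TTTC, any 2 bases, TTTC when it lies on the opposite one). RefSeq promoter windows of build GRCm38.p6, from 250 bases before to 50 bases after a gene's start, were at hand for 29 of the 37 members. Of these 29, 18 held the motif (62.1%), against 1079 of all 27025 genes with a window (3.99%). Among members with a window, it occurred in 14 of the 21 that were higher in WT ID8 than in WT naive cells by the test given below and in 4 of the 8 that were not. The 4 stretches printed here belong to members whose values are described in full, and show how the same letters sit at different distances from the start. Each is 40 bases, read 5′ to 3′ on the gene's strand, which is the minus strand in all 4, and the capitals mark the motif.
Cxcl10: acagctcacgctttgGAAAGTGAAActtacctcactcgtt
Rsad2: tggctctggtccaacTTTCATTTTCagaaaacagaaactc
Oas3: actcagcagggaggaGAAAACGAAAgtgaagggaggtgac
Phf11b: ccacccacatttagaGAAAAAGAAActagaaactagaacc
The Cxcl10 stretch lies at chr5:92349078-92349117, with the motif 213 to 204 bases before the start. In Rsad2, at chr12:26456548-26456587, the motif was read on the opposite strand, 120 to 111 bases before the start. The Oas3 stretch, at chr5:120777710-120777749, has it 75 to 66 bases before the start, and that of Phf11b, at chr14:59341356-59341395, 50 to 41 bases before. A match describes these letters and is not evidence of binding.

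Levels are given as CPM, counts scaled to a total of 1000000 in the tested genes and adjusted by the trimmed mean of M values (TMM). Library totals ran from 7358559 to 23170244 counts, so that the detection floor used here, 3 counts, was worth 0.137 to 0.399 CPM. Timd4, the gene of Tim4, stood at 882 to 1489 CPM in the WT libraries and at 1.38 to 7.71 CPM in the Tim4KO libraries, matching the labels in all 12. Gata6 (120.2 to 194 CPM) and Adgre1, which encodes F4/80 (2569 to 6299 CPM), were present throughout. Reads in 1713 olfactory and vomeronasal receptor genes, used as a gauge of background, averaged 521 and 347 CPM in WT and Tim4KO naive and 112 and 223 CPM in WT and Tim4KO ID8 libraries. Summed markers of some other cells differed with challenge too. The 7 neutrophil markers summed to 6.71 to 10.1 CPM in naive and 11.7 to 32.5 CPM in ID8 libraries (4 of 7 with a higher mean in WT ID8 than in WT naive), with Ly6g at no more than 0.231 CPM. From WT naive to WT ID8, group means went from 17.2 to 5.31 CPM for 6 B cell markers. They went from 135 to 72.9 CPM for 7 markers of small peritoneal macrophages or dendritic cells. For 8 epithelial or tumour markers they went from 12.9 CPM (24.6, 5.54 and 8.59 in WT naive 1, 2 and 3) to 2.53 CPM. From Tim4KO naive to Tim4KO ID8 these sums went from 10.3 to 6.17, from 130 to 107 and from 7.18 to 3.99 CPM. The single markers did not all go with the sums. In Tim4KO, 1 of the 6, 4 of the 7 and 3 of the 8 had a higher mean in ID8 cells. In WT these counts were 0 of 6, 1 of 7 and 0 of 8. The WT libraries overlapped for the small macrophage or dendritic cell sum (112 to 166 CPM in naive and 49.8 to 114 CPM in ID8). The 6 T and NK cell markers went from 4.10 to 3.24 CPM in WT and from 3.65 to 4.51 CPM in Tim4KO, with overlapping libraries in both. A list of 7 markers of plasmacytoid dendritic cells was carried by Tcf4, which other cells also express (61.9 to 141 CPM), while Siglech, a defining marker, stayed at or below 0.758 CPM. The sum of 10 markers of large peritoneal macrophages was 61606 to 71798 CPM in naive and 27354 to 33560.1 CPM in ID8 libraries, with 3 of the 10 at a higher mean in ID8 than in naive libraries in either genotype. This fall was carried mainly by Lyz2, which had the most reads of the 10 in every library. Lyz2 had 406846, 709567 and 659753 reads in WT naive, 93226, 146620 and 328488 in WT ID8, 579054, 333881 and 719593 in Tim4KO naive and 191430, 140834 and 240052 in Tim4KO ID8. The part of these differences in the results was not tested.

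Pairs of like genes limit what single names can carry. Of all 50-base stretches in the longest coding transcript of Oas1a, 57.6% also occur in Oas1g, and of those of Ifit3, 51.2% occur in Ifit3b, so reads may have been shared between the genes of either pair. Phf11b shares 47.0% of its stretches with other genes, and 26.0% with Phf11a alone. Herc6 shares 23.8% with the overlapping model Gm45193. Some members overlap a gene on the other strand, as Dhx58 and Slfn5 do with their antisense partners, and how strand was handled in counting is not given in the sources used here.

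In WT macrophages, most of the interferon-stimulated genes were higher after the ID8 challenge. Of the 37, 24 rose and 0 fell by edgeR's quasi-likelihood test at a Benjamini-Hochberg adjusted p under 0.05. Among all 15943 tested genes 31.8% changed, 19.5% upward. The median log2 change of the members was 1.12, against -0.04 for all tested genes, and 35 of the 37 estimates were above 0. The 3 ID8 libraries lay wholly above the 3 naive ones for 25 members, a pattern shared by 23.3% of all genes, and wholly below for 1, Isg20 (21% of all genes). The number that rose depended on single libraries. It was 11 without WT naive 1 (14.5% of all genes rose) or without WT ID8 2 (14.7%). It was 13 without WT naive 2 (15.9%) and 28 without Tim4KO naive 1 (19.2%). Deviations from the group mean correlated between WT naive and WT ID8 libraries with the same number (r = 0.423, 0.103 and 0.191 across genes). Over all 18 same-number pairs of the 4 groups r ran from -0.498 to 0.423, and the labels tie no number to an animal. With the number as a replicate block 21 members rose (19% of all genes), with Cmpk2 and Ifi35 gained and Oasl2, Ifit3, Ifit3b, Ifih1 and Ifi44 lost.

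**Figure D1:**
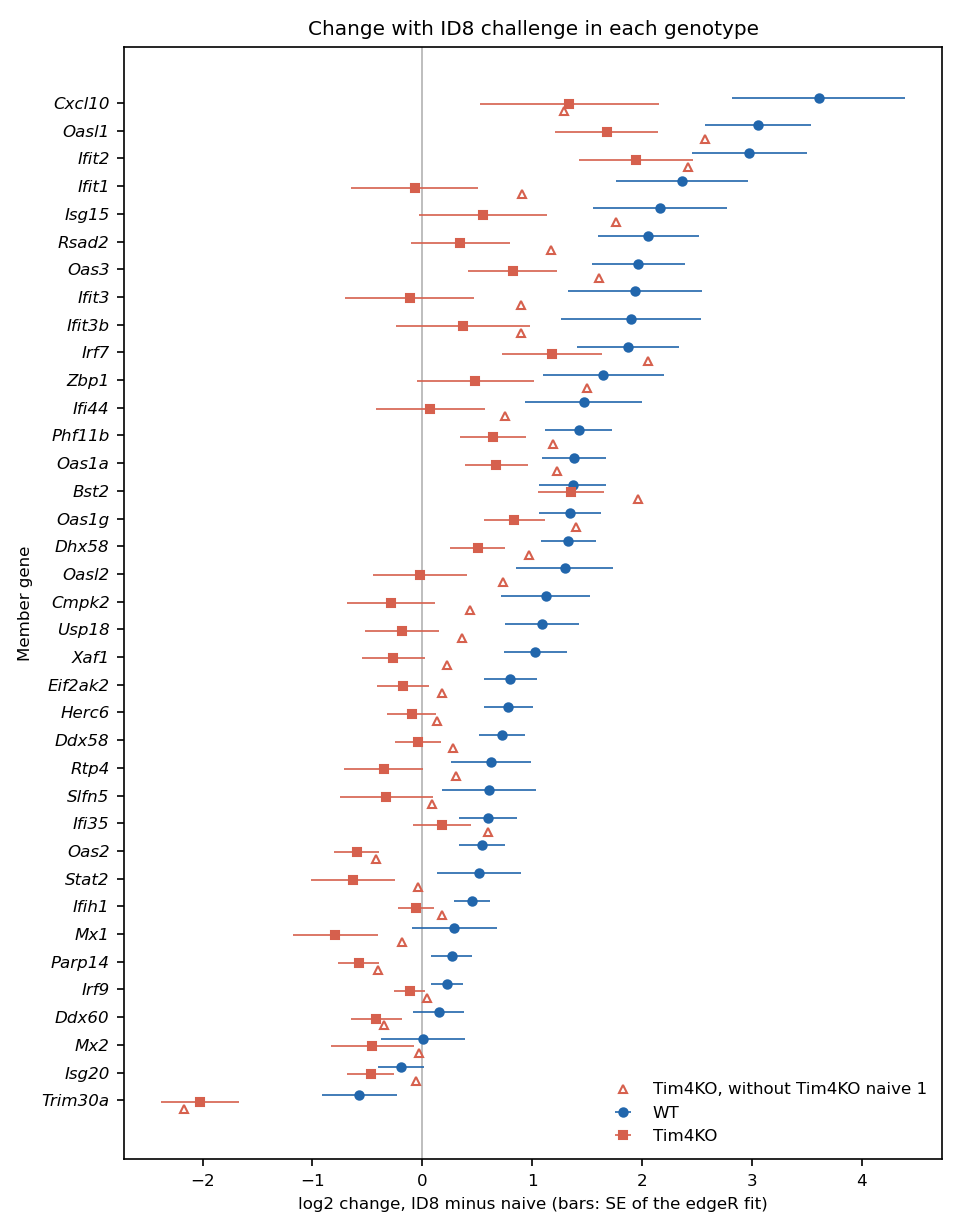
Log2 change from naive to ID8 cells (x axis) for each of the 37 members (y axis, ordered by the change in WT), with circles for WT, squares for Tim4KO and open triangles for Tim4KO without the library Tim4KO naive 1. Bars are standard errors of the edgeR fit. Most WT circles lie above 0, with a median of 1.12, while the Tim4KO squares scatter around 0 with a median of -0.06.

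The Oas and Oasl genes, most of which encode enzymes that make oligoadenylates that activate RNase L, rose in WT cells in 5 of 6 cases. Oasl1 (ENSMUSG00000041827), which lacks that enzyme activity and restrains translation of Irf7, was at 2.82, 2.34 and 4.82 CPM in WT naive, 31.2, 36.3 and 16.6 in WT ID8, 8.12, 2.40 and 2.31 in Tim4KO naive and 13.5, 12.7 and 15.1 in Tim4KO ID8. Every ID8 library of either genotype lay above every naive library, and the WT ID8 libraries lay above the Tim4KO ID8 ones. The WT change was 3.06 (SE 0.49, adjusted p = 0.000892), or 8.32-fold, from 3.32 ± 1.32 to 28.01 ± 10.2 CPM (mean ± SD, n = 3). Oas3 (ENSMUSG00000032661), an enzyme that prefers long double-stranded RNA, was at 23.1, 21.6 and 36.2 CPM in WT naive, 92.6, 129.7 and 94.5 in WT ID8, 89.8, 28.6 and 29.3 in Tim4KO naive and 84.5, 87.2 and 90.0 in Tim4KO ID8. Its WT groups were far apart and rose by 1.97 (SE 0.42, adjusted p = 0.00668) on the log2 scale, while Tim4KO naive 1 stood among the challenged libraries.

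Oas1a (ENSMUSG00000052776) and its close relative Oas1g (ENSMUSG00000066861) both rose. Oas1a was at 71.4, 60.1 and 70.1 CPM in WT naive, 151, 225 and 148 in WT ID8, 139, 58.3 and 61.1 in Tim4KO naive and 139.6, 139 and 134 in Tim4KO ID8. Oas1g was at 18.3, 17.8 and 21.9 CPM in WT naive, 41.7, 59.3 and 46.6 in WT ID8, 41.1, 17.2 and 17.5 in Tim4KO naive and 47.8, 46.1 and 41.7 in Tim4KO ID8. In both genes WT ID8 2 was the highest of the 12 libraries and Tim4KO naive 1 was more than the other Tim4KO naive libraries, close to the Tim4KO ID8 range. The WT changes were 1.38 (SE 0.29, adjusted p = 0.00404) for Oas1a and 1.35 (SE 0.28, adjusted p = 0.00367) for Oas1g. Oasl2 (ENSMUSG00000029561), which carries ubiquitin-like domains beside its synthetase domain, was at 77.4, 67.4 and 106 CPM in WT naive, 189, 279.7 and 147 in WT ID8, 258, 101 and 72.9 in Tim4KO naive and 137, 159 and 129.9 in Tim4KO ID8. Its WT groups did not overlap, and its WT change of 1.29 (SE 0.44, adjusted p = 0.0479) sat at the threshold, was called in 2 of the 12 fits that left out 1 library, and did not pass with the replicate block (adjusted p = 0.0772). Oas2 gave 0.54 and did not pass (adjusted p = 0.0571).

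All 4 Ifit genes, a family in which some proteins bind RNA with foreign ends, rose in WT cells. Their median log2 change was 2.15, although 2 of the 4 did not pass with the replicate block. Ifit2 (ENSMUSG00000045932) was at 2.49, 0.467 and 1.33 CPM in WT naive, 5.06, 14.9 and 12.05 in WT ID8, 2.21, 0.666 and 1.30 in Tim4KO naive and 5.69, 6.18 and 4.84 in Tim4KO ID8. All ID8 libraries lay above all naive ones, and WT naive 2 was near the floor of detection. The WT change was 2.98 (SE 0.52, adjusted p = 0.00112), or 7.86-fold. Ifit1 rose by 2.37 (adjusted p = 0.0163), Ifit3 by 1.93 (adjusted p = 0.0373) and Ifit3b by 1.90 (adjusted p = 0.0341). With the replicate block the adjusted p was 0.0577 for Ifit3 and 0.067 for Ifit3b, and Ifit3 was called in 4 of the 12 fits that left out 1 library. Ifit3b had 3, 3 and 9 reads in the WT naive libraries, at the detection floor of 3 in 2 of them. Per kilobase of exon, Ifit3b averaged 0.445 CPM over all libraries, the lowest of the 37.

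Of the 3 transcription factors among the members (Irf7, Irf9 and Stat2), Irf7 passed the test. Irf7 (ENSMUSG00000025498), which drives interferon alpha genes and amplifies the response, was at 87.6, 61.4 and 80.2 CPM in WT naive, 192, 340.1 and 304 in WT ID8, 219.9, 70.6 and 59.5 in Tim4KO naive and 292, 224 and 280.3 in Tim4KO ID8. WT ID8 and WT naive libraries did not overlap, and Tim4KO naive 1 lay above WT ID8 1. The WT change was 1.87 (SE 0.47, adjusted p = 0.0146). The ISGF3 subunits Stat2 and Irf9 gave 0.52 (adjusted p = 0.307) and 0.23 (adjusted p = 0.227). Those 2 values did not pass, and the difference between Irf7 and the subunits was not tested.

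The ubiquitin-like modifier Isg15 and its enzymes rose in WT cells in 3 of 3 cases. Isg15 changed by 2.16 (adjusted p = 0.0266), Usp18, which removes the modifier and damps the receptor, by 1.09 (adjusted p = 0.0303), and Herc6, a ligase for it, by 0.78 (adjusted p = 0.0172). Isg15 went from 15.2 ± 2.12 to 67.9 ± 29.4 CPM (mean ± SD, n = 3). Of the RNA helicases, Ddx58 (RIG-I), Ifih1 (MDA5) and Dhx58 (LGP2) rose and Ddx60 did not pass (0.15, adjusted p = 0.632). Dhx58 (ENSMUSG00000017830), a regulator of the other helicases, was at 23.4, 19.7 and 23.1 CPM in WT naive, 53.2, 66.5 and 46.4 in WT ID8, 41.5, 16.9 and 22.5 in Tim4KO naive and 39.4, 40.1 and 35.96 in Tim4KO ID8. The lowest WT ID8 library was above every naive library, Tim4KO naive 1 included. Its WT change was 1.33 (SE 0.25, adjusted p = 0.00172). Ddx58 rose by 0.72 (adjusted p = 0.0182) and Ifih1 by 0.46 (adjusted p = 0.0452, and 0.0622 with the replicate block).

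Of the 8 other antiviral effectors, 4 rose in WT cells. Rsad2 (ENSMUSG00000020641), or viperin, makes a nucleotide that stops viral polymerases, and its level was 12.8, 9.62 and 15.7 CPM in WT naive, 54.8, 71.4 and 32.9 in WT ID8, 31.5, 9.59 and 9.97 in Tim4KO naive and 23.2, 19.5 and 22.5 in Tim4KO ID8. WT ID8 stood above all other groups, and the Tim4KO ID8 libraries stayed below Tim4KO naive 1. The WT change was 2.06 (SE 0.46, adjusted p = 0.00839), or 4.16-fold. Cmpk2, its neighbour in the genome and a nucleotide kinase, gave 1.12 (adjusted p = 0.0574). Bst2 (ENSMUSG00000046718), or tetherin, which holds virions at the cell surface, was at 132, 106 and 107 CPM in WT naive, 249.97, 331 and 312 in WT ID8, 182, 68.2 and 76.2 in Tim4KO naive and 284, 265 and 287 in Tim4KO ID8. Every ID8 library of both genotypes was above every naive one, and WT rose by 1.37 (SE 0.30, adjusted p = 0.00572). Eif2ak2 (PKR), which halts translation on sensing double-stranded RNA, rose by 0.80 (adjusted p = 0.0221), and Zbp1, a sensor of Z-form nucleic acid, by 1.65 (adjusted p = 0.0475). Zbp1 was called in 3 of the 12 fits that left out 1 library (without Tim4KO naive 1, 2 or 3) and in 4 of the 8 other settings. The GTPases Mx1 and Mx2 gave 0.29 (adjusted p = 0.57) and 0.01 (adjusted p = 0.991), and the exonuclease Isg20 gave -0.19 (adjusted p = 0.485).

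The chemokine Cxcl10 (ENSMUSG00000034855), which draws in T and NK cells that carry Cxcr3, had the largest WT estimate of the 37. It was at 0.433, 0.267 and 0.279 CPM in WT naive, 3.57, 6.96 and 1.51 in WT ID8, 0.328, 0.799 and 0.113 in Tim4KO naive and 0.231, 1.66 and 0.922 in Tim4KO ID8. The naive libraries held only 2 to 6 reads each, and the WT ID8 libraries 31, 81 and 33 reads. WT ID8 lay above every naive library, and Tim4KO ID8 1 fell within the naive range. The WT change was 3.61 (SE 0.78, adjusted p = 0.0033), or 12.2-fold, at counts near the floor in the naive cells.

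Of 8 members with less defined or other roles, 3 rose in WT cells. Phf11b (ENSMUSG00000091649), a PHD finger gene, was at 93.3, 80.0 and 92.5 CPM in WT naive, 222, 314 and 177 in WT ID8, 148, 68.04 and 59.7 in Tim4KO naive and 136, 156 and 139 in Tim4KO ID8. The WT groups did not overlap and rose by 1.42 (SE 0.31, adjusted p = 0.00498). Xaf1, a partner of apoptosis inhibitors, rose by 1.03 (adjusted p = 0.019), and Ifi44 by 1.47 (adjusted p = 0.0488, and 0.0559 with the replicate block). Ifi44 had 15, 5 and 28 reads in the WT naive libraries, with WT naive 2 (0.334 CPM) near the floor of detection. Rtp4 (ENSMUSG00000033355), a receptor-transport chaperone, was at 167, 147 and 185 CPM in WT naive, 248, 343 and 179.7 in WT ID8, 400.4, 148 and 150.03 in Tim4KO naive and 191, 185 and 172 in Tim4KO ID8. Tim4KO naive 1 was the highest of its 12 values, and the WT change did not pass (0.62, SE 0.36, adjusted p = 0.2). Ifi35, Slfn5 and the ADP-ribosyltransferase Parp14 gave 0.60 (adjusted p = 0.0954), 0.61 (adjusted p = 0.286) and 0.27 (adjusted p = 0.263).

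Trim30a (ENSMUSG00000030921), a tripartite-motif gene, had the highest level of the 37 per kilobase of exon (234 CPM, averaged over 12 libraries) and estimates below 0 in both genotypes. Its level was 1585, 1079.5 and 769.6 CPM in WT naive, 935, 833 and 539 in WT ID8, 1172, 2083 and 1392 in Tim4KO naive and 298, 293 and 554 in Tim4KO ID8. The Tim4KO ID8 libraries were below all other libraries except for Tim4KO ID8 3, which lay just above WT ID8 3. WT groups overlapped and gave -0.57 (SE 0.34, adjusted p = 0.21), while Tim4KO cells fell by 2.02 on the log2 scale (SE 0.35, adjusted p = 0.00329).

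**Figure D2:**
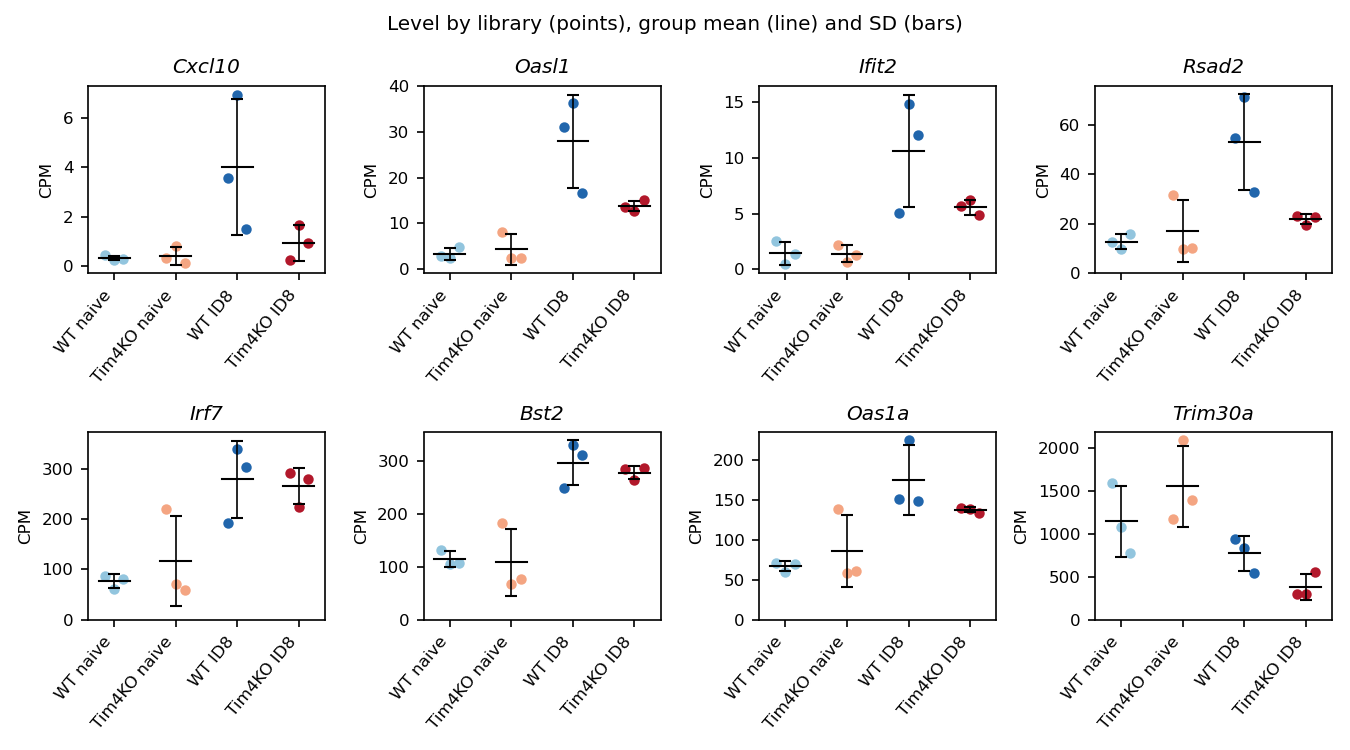
Level in CPM (y axis, linear) of 8 members in each library (points), by group (x axis), with the group mean (line) and SD (bars, n = 3). Oasl1, Ifit2 and Bst2 have all ID8 points above all naive points, and 1 Tim4KO naive point stands high for Irf7 and Oas1a (219.9 and 139 CPM).

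In Tim4KO macrophages, few of the members passed the test after the same challenge. Bst2, Ifit2 and Oasl1 rose, and Trim30a and Parp14 fell, so 5 of 37 (13.5%) changed where 16.6% of all tested genes did (11.5% upward, 5.06% downward). The share is near the background. The median log2 change was -0.06, against -0.05 for all genes, with 16 estimates above 0 and 21 below. The groups were apart for 9 members: 5 with ID8 above naive (23.7% of all genes) and 4 with ID8 below (18.1%). Bst2 rose by 1.35 (SE 0.30, adjusted p = 0.0108), Ifit2 by 1.94 (SE 0.52, adjusted p = 0.022) and Oasl1 by 1.68 (SE 0.47, adjusted p = 0.0317). Parp14 fell by 0.58 (SE 0.18, adjusted p = 0.042). Members that rose in WT and did not pass here included Rsad2 (0.35, adjusted p = 0.654), Ifit1 (-0.07, adjusted p = 0.948), Oasl2 (-0.02, adjusted p = 0.981) and Isg15 (0.55, adjusted p = 0.579).

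The Tim4KO counts depended on single libraries. Without Tim4KO naive 2 or 3 or without any 1 Tim4KO ID8 library, 2 or 3 members passed (7.04% to 9.6% of all genes changed). Without Tim4KO naive 1, 13 passed (16.4% of all genes). Tim4KO naive 1 had the highest level of its group for 35 of the 37 members, and for 36.4% of all tested genes. The median member stood 0.63 above its 12-library mean (log2) in this library, against -0.31 and -0.54 in Tim4KO naive 2 and 3. The corresponding values were -0.46, -0.68 and -0.36 for WT naive and 0.51, 0.94 and 0.11 for WT ID8, and they were 0.07, -0.05 and 0.01 for Tim4KO ID8, while the median over all genes lay between -0.07 and 0.06 in every library. Its background reads were between those of the other 2 Tim4KO naive libraries. Within groups, the spread of the members (median SD of log2 CPM) was 0.71 for Tim4KO naive (0.26 over all genes), 0.27 for WT naive (0.21), 0.44 for WT ID8 (0.34) and 0.11 for Tim4KO ID8 (0.16).

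**Figure D3:**
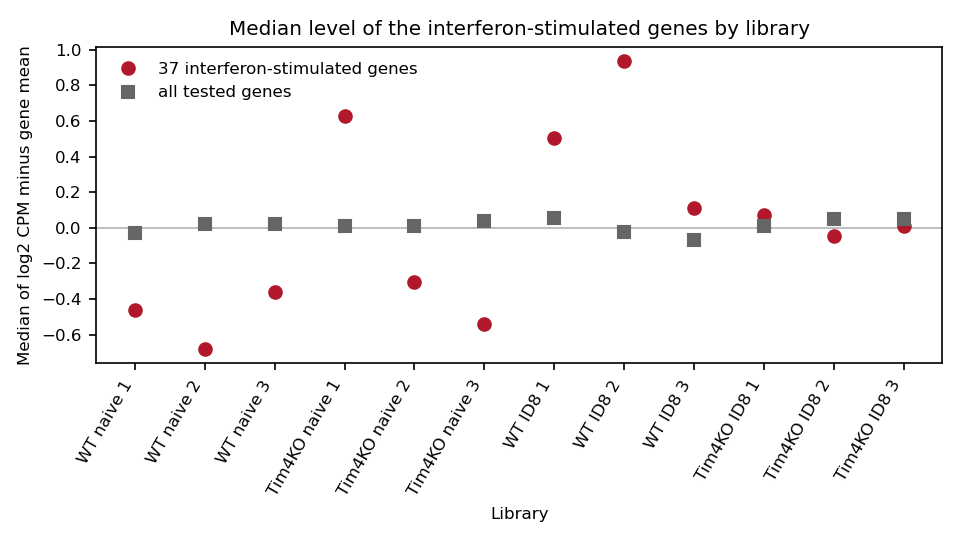
Median over genes of log2 CPM minus the gene's mean over 12 libraries (y axis) in each library (x axis), for the 37 members (circles) and all tested genes (squares). Tim4KO naive 1 stands at 0.63 while the other 5 naive libraries lie between -0.68 and -0.31, and WT ID8 2 is highest at 0.94.

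Without Tim4KO naive 1, 12 members rose and 1 fell in Tim4KO cells, where 16.4% of all genes changed (12% upward), and the median log2 change was 0.60. The 12 were Bst2, Dhx58, Ifit2, Irf7, Isg15, Oas1a, Oas1g, Oas3, Oasl1, Phf11b, Rsad2 and Zbp1. Irf7 then rose by 2.05, Bst2 by 1.97, Oas3 by 1.61, Oas1g by 1.40, Oas1a by 1.22, Phf11b by 1.19, Dhx58 by 0.97 and Rsad2 by 1.17. With that library kept, the same 8 genes gave 1.18, 1.35, 0.82, 0.84, 0.68, 0.64, 0.50 and 0.35. Trim30a was lower in all 12 fits that left out 1 library, and Bst2 higher in all 12. The call for Parp14 held in 6 of those 12, that for Oasl1 in 7 and that for Ifit2 in 8.

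**Figure D4:**
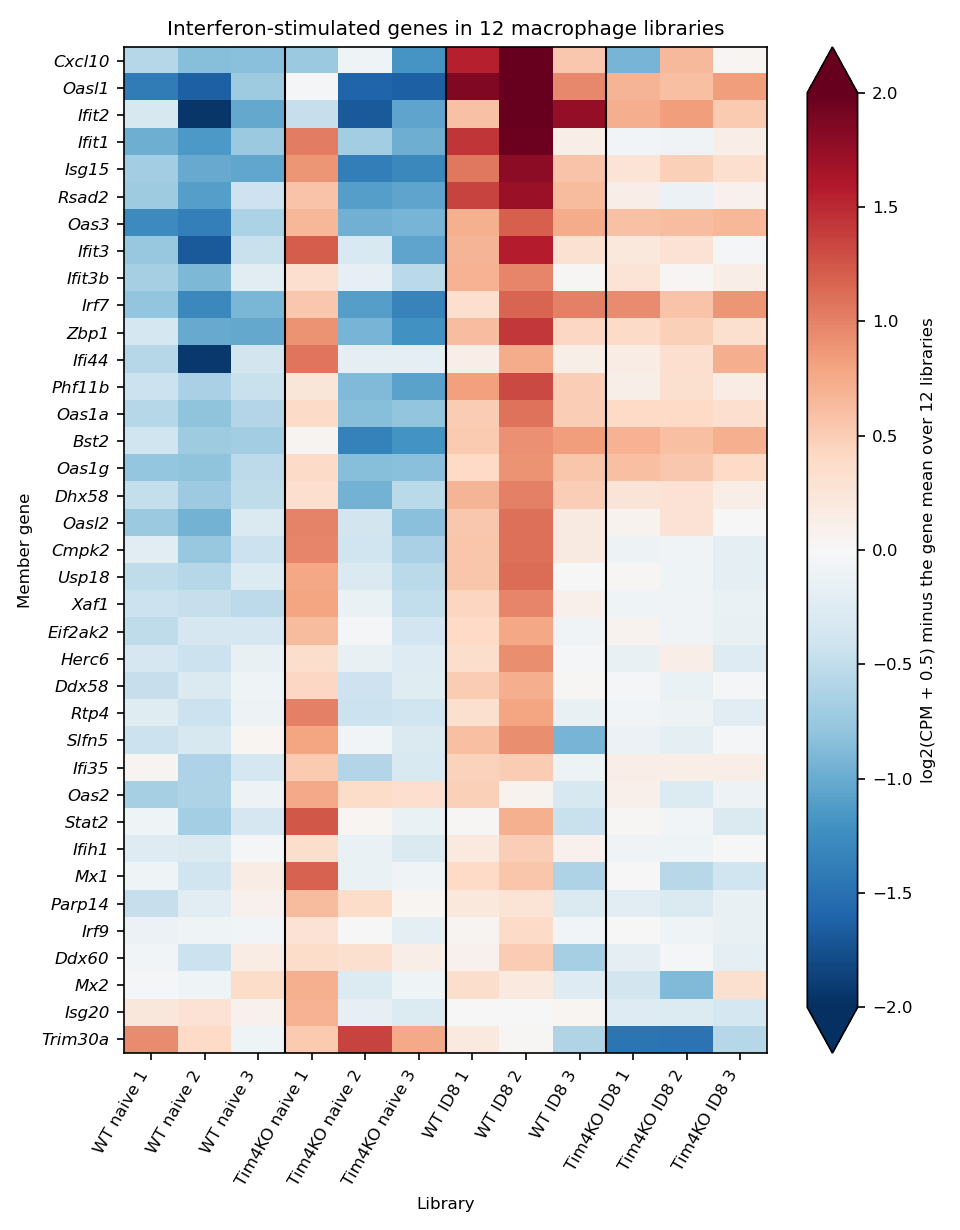
Log2(CPM + 0.5) of each member (rows, ordered by WT change) in each library (columns, by group), less the gene's mean over 12 libraries (colour, red above and blue below). Tim4KO naive 1 is red for most members among blue naive libraries, and WT ID8 2 is the highest of the 12 libraries for 27 of the 37.

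Between genotypes in naive cells, 0 of the 37 members passed the edgeR test, where 0.0439% of all genes did. The median difference was 0.44 (Tim4KO minus WT, log2), with 35 estimates above 0, and 6 members had an unadjusted p under 0.05 (6.27% of all genes). Oas2 was nearest to the threshold at 0.95 (SE 0.21, adjusted p = 0.261), with 35.5, 36.7 and 52.3 CPM in WT naive and 96.2, 73.1 and 71.3 in Tim4KO naive. Oas2 and Ifi44 were the only members whose 2 naive groups did not overlap, both higher in Tim4KO (7.34% of all genes), and 0 were lower (6.84% of all genes). Without Tim4KO naive 1 the median difference was -0.01, with 17 estimates above 0 and 20 below. DESeq2 called 1 member, Oas2 (0.326% of all genes). The edgeR test also called Oas2 without WT ID8 3 (adjusted p = 0.0185, 0.167% of all genes) and with no filter on low counts (0.116% of all genes).

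Between genotypes in challenged cells, 0 of the 37 passed the edgeR test again (0.0565% of all genes), with 36 of 37 estimates below 0. The median difference was -0.49, and 9 members had an unadjusted p under 0.05 (12.1% of all genes). The 3 Tim4KO ID8 libraries lay wholly below the 3 WT ID8 ones for 13 members, as 8.56% of all genes did, and wholly above for 0 (7.06% of all genes). The 13 were Cmpk2, Ddx58, Dhx58, Ifih1, Ifit3, Isg15, Isg20, Oas1a, Oas3, Oasl1, Phf11b, Rsad2 and Xaf1. For Rsad2, the group means were 21.7 ± 1.99 CPM in Tim4KO ID8 against 53.05 ± 19.3 CPM in WT ID8 (mean ± SD, n = 3), a difference of -1.28 (SE 0.45, adjusted p = 0.317). Oasl1 gave -1.01 (SE 0.44, adjusted p = 0.389) and Cxcl10 -2.09 (SE 0.70, adjusted p = 0.284). Bst2, with 297 ± 42.2 and 279 ± 11.9 CPM, gave -0.09 (SE 0.30, adjusted p = 0.918). Within WT ID8 the members did not sit together: WT ID8 2 was the highest of its group for 33 members (35.6% of all genes) and WT ID8 3, the deepest library with the fewest background reads, the lowest for 31 (47.8% of all genes). Without WT ID8 3, Cxcl10, Ddx58 and Herc6 passed as lower in Tim4KO (5.74% of all genes changed, 2.24% upward) and the median was -0.69. Without WT ID8 2 the median was -0.26 and 0 passed. DESeq2 called 1 member, Rsad2 (1.67% of all genes).

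Whether the challenge response itself differed with genotype was tested by the interaction, the Tim4KO change minus the WT change. No member passed the edgeR test (0 of 37, and 0% of all genes), and the smallest adjusted p was 0.668. All 37 estimates were below 0, with a median of -1.03 against 0.01 for all genes, and 14 members had an unadjusted p under 0.05 (7.44% of all genes). The estimates ranged from -2.44 for Ifit1 (SE 0.83) to -0.02 for Bst2. Without Tim4KO naive 1 the median was -0.54, with 33 estimates below 0, and 0 members passed. Without WT ID8 3, Ddx60, Herc6, Oas2 and Parp14 passed as lower (2.12% of all genes changed, 0.794% upward) and the median was -1.23. That a member rose in WT and did not pass in Tim4KO cells therefore does not show, with these 12 libraries, that its response differed.

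Other genes of the pathway were taken from lists written beside the members. Of 11 interferon genes (alpha, beta, gamma, lambda and others), 0 had enough reads to be tested, and their summed level was at most 1.41 CPM in any library. Ifnb1, the gene of interferon beta, had 0 reads in 10 libraries and 1 read each in Tim4KO naive 1 and 2. Of 15 receptor and signalling genes, 0 rose and 4 fell in WT cells, and 0 rose and 3 fell in Tim4KO cells, where 12.3% and 5.06% of all genes fell. Counts this small moved with single libraries. In WT, 2 fell without WT naive 2, WT naive 3 or WT ID8 3 (19.8% to 29.4% of all genes changed, 13.5% to 19.2% upward). In Tim4KO, 0 fell without Tim4KO ID8 2 (8.18% of all genes changed, 6.68% upward). Also in Tim4KO, 2 fell without any of the other libraries except WT ID8 2 or WT ID8 3 (7.04% to 16.4% of all genes changed, 5.41% to 12% upward). Without either of those, 4 fell (16% and 20.7% of all genes changed, 11.4% and 14% upward). Irf2, a repressor that competes for the same promoter element, fell in both, with -0.66 (adjusted p = 0.0011) in WT and -0.58 (adjusted p = 0.00457) in Tim4KO. So did the interferon gamma receptor chain Ifngr1, with -0.69 (adjusted p = 0.00132) and -0.67 (adjusted p = 0.00297). Ifnar1 gave 0.07 (adjusted p = 0.774) in WT and did not pass. The other receptor chain, Ifnar2, was lower in WT by the edgeR test with the replicate block (-0.42, adjusted p = 0.0313). The block was added for these lists after seeing the data, and the fit without it is not reported here for Ifnar2. In Tim4KO the blocked fit gave -0.25 (adjusted p = 0.227) for Ifnar2.

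Of 13 tested genes of nucleic acid sensing, 5 rose and 1 fell in WT cells (19.5% and 12.3% of all genes), and 0 passed in Tim4KO cells (16.6% of all genes), with 2 at an unadjusted p under 0.05. The 1 that fell, Tmem173, was not called without WT naive 2 or WT ID8 2. In Tim4KO, 1 call appeared without WT naive 1, WT naive 3, Tim4KO naive 1 or WT ID8 3 (13.5% to 20.7% of all genes changed). Cgas, the sensor of cytosolic DNA, rose by 0.94 (SE 0.17, adjusted p = 0.000994) in WT and gave 0.16 (SE 0.17, adjusted p = 0.564) in Tim4KO. Its level was 11.5, 9.35 and 12.3 CPM in WT naive, 23.02, 22.4 and 18.4 in WT ID8, 14.7, 13.98 and 11.3 in Tim4KO naive and 15.4, 16.3 and 12.97 in Tim4KO ID8, so the WT groups did not overlap. Tlr3, the endosomal receptor for double-stranded RNA, rose by 0.82 (adjusted p = 0.0031) in WT, and Tmem173, which encodes STING downstream of Cgas, fell by 0.60 (adjusted p = 0.0153). Of 9 negative regulators, 2 rose and 1 fell in WT, and 0 rose and 2 fell in Tim4KO, so 33.3% and 22.2% changed beside 31.8% and 16.6% of all genes. The Tim4KO count was 0 or 1 without any 1 Tim4KO library other than Tim4KO naive 1 (7.04% to 9.6% of all genes changed). Socs1, which blocks the kinases, gave 1.53 (adjusted p = 0.0652) in WT and did not pass.

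A further list of interferon-induced genes outside the 37 had 48 tested members. In WT cells 14 rose and 1 fell, where 19.5% of all genes rose and 12.3% fell, with a median log2 change of 0.46 (-0.04 for all genes). In Tim4KO cells 3 rose and 1 fell (8.33%), where 16.6% of all genes changed and 11.5% rose, with a median of -0.07 (-0.05 for all genes). Helz2, a helicase coactivator, rose by 1.29 (adjusted p = 0.000161) in WT and 0.56 (adjusted p = 0.0465) in Tim4KO, and Lgals9, which encodes a galectin, by 1.19 (adjusted p = 0.00152) and 0.88 (adjusted p = 0.0155). Tim4KO naive 1 was the highest of its group for 45 of these 48 as well, and their sum over 50 listed genes was 11249 CPM there against 5931 and 5548 CPM in the other Tim4KO naive libraries. Without it, 9 rose and 1 fell in Tim4KO cells (16.4% of all genes changed, 12% upward). Leaving out any other library gave 0 to 3 that rose, where 5.41% to 14% of all genes did. In WT cells 7 of the 48 rose without WT naive 1 or WT naive 2, where 14.5% and 15.9% of all genes rose. Without WT ID8 2, 8 rose (14.7% of all genes), and without WT ID8 3, 23 rose (19.2% of all genes). In the genotype comparisons and the interaction, 0 of the genes in these lists passed the test by edgeR with all libraries, with 19 of the 48 at an unadjusted p under 0.05 in the interaction. Without WT ID8 3, 1 receptor gene passed as higher in Tim4KO among challenged cells, and 3 sensing genes and 3 of the 48 as lower. In that fit 5.74% of all genes changed, 2.24% upward. In the interaction 1 sensing gene and 2 of the 48 then passed as lower (2.12% of all genes changed, 0.794% upward).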

How the data were processed

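Gene expression was measured by RNA-seq in 12 libraries, made with the RNeasy micro and SMART-Seq mRNA LP kits per the labels' protocols. The values are whole-number counts of reads per Ensembl gene, which the authors deposited as 1 table of 57010 genes. That they are raw was read from the values. FastQC, STAR 2.5 and the builds mm10 and GRCm39 are named, with no role or order, per the submitters' processing notes, and the counter, annotation and strand handling are not given in the sources used here. Each of the 12 columns matched 1 sample by name, with 0 left over, and GENCODE vM21 gave a symbol to 52029 identifiers and the exon lengths.

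Counts were analysed with edgeR 4.0.16 in R 4.3.3. Genes kept by filterByExpr (15943) were scaled by TMM and fitted with 1 mean per group over all 12 libraries by robust quasi-likelihood, with 8 residual degrees of freedom. Two-sided tests were adjusted by Benjamini-Hochberg over all tested genes, with calls at an adjusted p under 0.05. The SE is the size of the log2 change over the root of its F statistic. The pipeline was tested on simulated data. The floor of 3 counts covers counting error only, since reads were amplified by PCR.

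Per-library values were given for the 12 members with the smallest p among those called and for the 6 with the highest level, 14 in all. The members, companion lists and tests were chosen with earlier results of these data known. The companion list of other interferon-induced genes held 51 symbols, of which 1 is a synonym of another. Alternatives were DESeq2 size factors, upper-quartile scaling, no filter, a mean count of at least 50, DESeq2 1.42.0, limma 3.58.1 (voom), a replicate block, a fit of only the groups compared, and leaving out each library. The labels do not say that a replicate number marks an animal. Deviations from the group means correlated above 0.1 in all 3 same-number pairs of WT naive with WT ID8 (0.423, 0.103 and 0.191), and not in all 3 of any other 2 groups, so blocked values stand beside the WT challenge results. Leaving out libraries and the block for the companion lists were added after seeing the data. A gene of the receptor and signalling list entered its counts and is not reported here by name.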

Additional observations from a re-analysis of the deposited data

How the results depend on the processing

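The count of members that passed in WT cells was 24, and with upper-quartile scaling it was 15, all higher; that scaling moved the median change of all genes from -0.04 to -0.28 and left 11.3% of all genes higher out of 33.3% that changed, against 19.5% out of 31.8%. The other settings gave 18 to 24, with 6.6% to 20.4% of all genes higher. In Tim4KO cells the count was 5, and 10 with no filter on low counts (6 higher, 4 lower). With no filter, 1 member passed between genotypes in naive cells, 5 in challenged cells and 4 in the interaction, against 0 each; under that setting 0.116%, 0.52% and 0.144% of all genes passed, and 4.59% in Tim4KO cells. DESeq2 called 1 in naive cells (0.326% of all genes) and 1 in challenged cells (1.67% of all genes). Leaving out each library in turn gave 11 to 28 in WT, where 13.5% to 21.4% of all genes were higher. It gave 2 to 13 in Tim4KO, where 7.04% to 20.7% of all genes changed. Between genotypes it gave 0 to 1 in naive cells (at most 0.167% of all genes) and 0 to 3 in challenged cells (at most 5.74%). The interaction gave 0 to 4 (at most 2.12% of all genes). The cause of these shifts was not tested. Of the 29 calls, 195 of 229 values under other settings kept the call and 0 were reversed, and with 1 library left out 270 of 348 kept it and 0 were reversed. With the replicate number as a block, 21 members passed in WT (29% of all genes), 4 in Tim4KO (16.1% of all genes) and 0 in the other 3 comparisons. Among companion genes named in the report with an unblocked value, the block changed no call. Outside the 3 WT pairs, 2 of the other 15 same-number pairs correlated above 0.1 (from -0.498 to 0.22), and over all groups the best match had the same number in 9 of 36 cases. The fit of only the groups compared cannot be made for the interaction, which uses all 4 groups. A count of 3 corresponds to 0.137 to 0.399 CPM, which limits Cxcl10, Ifit2 and Ifit3b in naive cells, and Ifi44 in WT naive 2.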
